A study of Mus musculus with 30 samples.

Results

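The 29 genes described here encode enzymes of cholesterol synthesis and the proteins that control the transcription factor SREBP2, and they were followed in 3T3-L1 cells, a mouse preadipocyte line driven towards fat cells in adipogenic medium. They were chosen by name and by having more than 14 counts summed over all 30 libraries, a limit that all 29 listed genes passed, so the members are 29 of the 54232 genes in the count table and 29 of the 20139 that passed the same limit. Their summed counts were the values used to choose them. The lowest total, 5038 counts for Mbtps2, lay far above the limit, and no listed gene lay below it. RNA was sequenced in 6 groups of 5 libraries: control cells, cells given pNaKtide (0.7 µM), cells given indoxyl sulphate (IS, 100 µM), IS + pNaKtide, cells given oxidised LDL (oxLDL, 50 µg/mL), and oxLDL + pNaKtide. pNaKtide is a cell-permeant peptide made to block the signalling function of Na,K-ATPase, IS is a solute retained in renal failure, and oxLDL is a lipoprotein particle that carries cholesterol and oxidised lipid. All groups shared the adipogenic medium, and all came from the same cell line. The labels give 5 days of treatment, whereas the methods give 2 days with daily dosing. The labels call the cells 3T3, yet their RNA protocol speaks of adipose tissue, and nothing in them says that the 5 libraries of a group came from separate cultures, so the p-values measure the spread between libraries, which may be technical.

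Cells make cholesterol from acetyl-CoA through mevalonate, farnesyl diphosphate, squalene and lanosterol. When the membrane of the endoplasmic reticulum is poor in sterol, Scap escorts SREBP2 to the Golgi, where a pair of proteases release the part that enters the nucleus and drives the genes of the pathway. When sterol is plentiful, Insig proteins hold Scap and SREBP2 back, and the genes of the pathway are known to fall together. In fat cells, much of the free cholesterol lies at the surface of the lipid droplet and in the plasma membrane.

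SREBP2 acts with the factors NF-Y and Sp1 at promoters, so the start regions of the members were read for the letters of 3 motifs on both strands, from 250 bases before to 50 bases after each RefSeq start (GRCm38.p6). Starts were found for 24 of the 29 genes. The core of an SREBP element (TCACNCCAC, where N is any base) was present in 1 of the 24, Hmgcs1, or 4.17%, against 1.44% of 27025 genes with a start in the same table. The NF-Y box (CCAAT) was present in 20 of 24 (83.3%) against 41.1% of all genes. The GC box bound by Sp1 (GGGCGG) was present in 21 of 24 (87.5%) against 38.2%. Windows are printed 5′ to 3′ along the strand of the gene, with the motif in capitals (ATTGG is the NF-Y box read on the other strand). They are given for Hmgcs1 and for 4 genes that fell or rose with oxLDL, to show that both kinds carry the same box close to a start. Dhcr7 and Insig2 have 3 RefSeq starts each, and only 1 of the 3, the start used below, had the box before it. In the NF-Y windows the capitals mark only the box nearest the start, and the window of Insig2 holds another, attgg, left in lower case.
Hmgcs1, SREBP element, chr13:119690194-119690242, + strand, motif 137 bases before the start: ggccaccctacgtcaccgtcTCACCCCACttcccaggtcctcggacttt
Dhcr7, NF-Y box, chr7:143830145-143830189, + strand, 49 bases before the start: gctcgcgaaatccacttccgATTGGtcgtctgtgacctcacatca
Mvd, NF-Y box, chr8:122443425-122443469, - strand, 27 bases before the start: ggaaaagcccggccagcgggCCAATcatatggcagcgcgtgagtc
Ggps1, NF-Y box, chr13:14063519-14063563, - strand, 55 bases before the start: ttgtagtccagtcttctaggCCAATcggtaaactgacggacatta
Insig2, NF-Y box, chr1:121332594-121332638, - strand, 29 bases before the start: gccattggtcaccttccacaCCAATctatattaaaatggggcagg
Among the members that fell with oxLDL, the NF-Y box was present in 10 of 12 with a start. It was present in 4 of 5 that rose and in 6 of 7 that were not called. A match of letters describes these windows and is not evidence of binding, and a missing match does not show that a site is absent. The shares of all genes were taken over every gene with a start, not only those that passed the count limit.

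Libraries held from 6945498 to 15159877 counts on genes. The lowest total was that of oxLDL + pNaKtide library 4. On the first principal component of log2 CPM (counts scaled to a common library size) over 11346 genes, which held 68.9% of the variance, control library 1 (-24.2) lay outside the range of its 4 fellows (5.9 to 27.7), as did IS library 4 (26.4, against -33.9 to -21.3). Control 1 thus scored within the range of the other IS libraries and IS 4 within that of the other controls. Groups were kept as labelled, and whether the labels of these libraries had been exchanged was not tested. Library 4 of oxLDL + pNaKtide (62.8, against 13.8 to 31) and library 3 of pNaKtide (-5.1, against 14.5 to 33.9) also stood apart. All 10 adipocyte markers were detected, with a median summed level of 16500 CPM in control, 14200 CPM with oxLDL, 17400 CPM with oxLDL + pNaKtide and 13000 CPM with IS. These markers ranged from 13500 to 17300 CPM in control, 12900 to 17100 CPM with oxLDL and 16200 to 18700 CPM with both agents. With oxLDL 4 of the 10 fell and none rose, with pNaKtide added to oxLDL 6 rose, and with IS 4 fell, beside 3.49% of all genes lower with IS. The median summed level of the 9 preadipocyte or fibroblast markers was 6430 CPM in control, 4310 CPM with pNaKtide, 3640 CPM with IS, 3740 CPM with IS + pNaKtide, 4620 CPM with oxLDL and 5220 CPM with oxLDL + pNaKtide. Its genes did not move as a block. With oxLDL 3 fell, Col1a1, Col1a2 and Dlk1, and Lum rose (0.47), and with pNaKtide added 2 rose, Dlk1 and Ly6a, and 2 fell, Lum (-0.93) and Pdgfra (-0.57). The 4 markers of cycling cells had median sums of 100 CPM in control, 120 CPM with oxLDL and 87.3 CPM with oxLDL + pNaKtide. Of these, Top2a (0.42) and Mki67 (0.37) rose with oxLDL, and Top2a (-0.73) and Cdk1 (-0.34) fell with pNaKtide added. Marker counts use the test and threshold given below. By these, 18% of all genes were lower and 18.1% higher with oxLDL, and 22.1% were higher and 26.1% lower with pNaKtide added. The part of these lists in the changes below was not tested. Macrophage markers summed to at most 8.47 CPM in a library, with 2 of 6 at 0 counts in every library, and endothelial markers to at most 0.613 CPM. In bulk RNA, fewer cells of a type and less RNA per cell cannot be told apart.

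**Figure D1:**
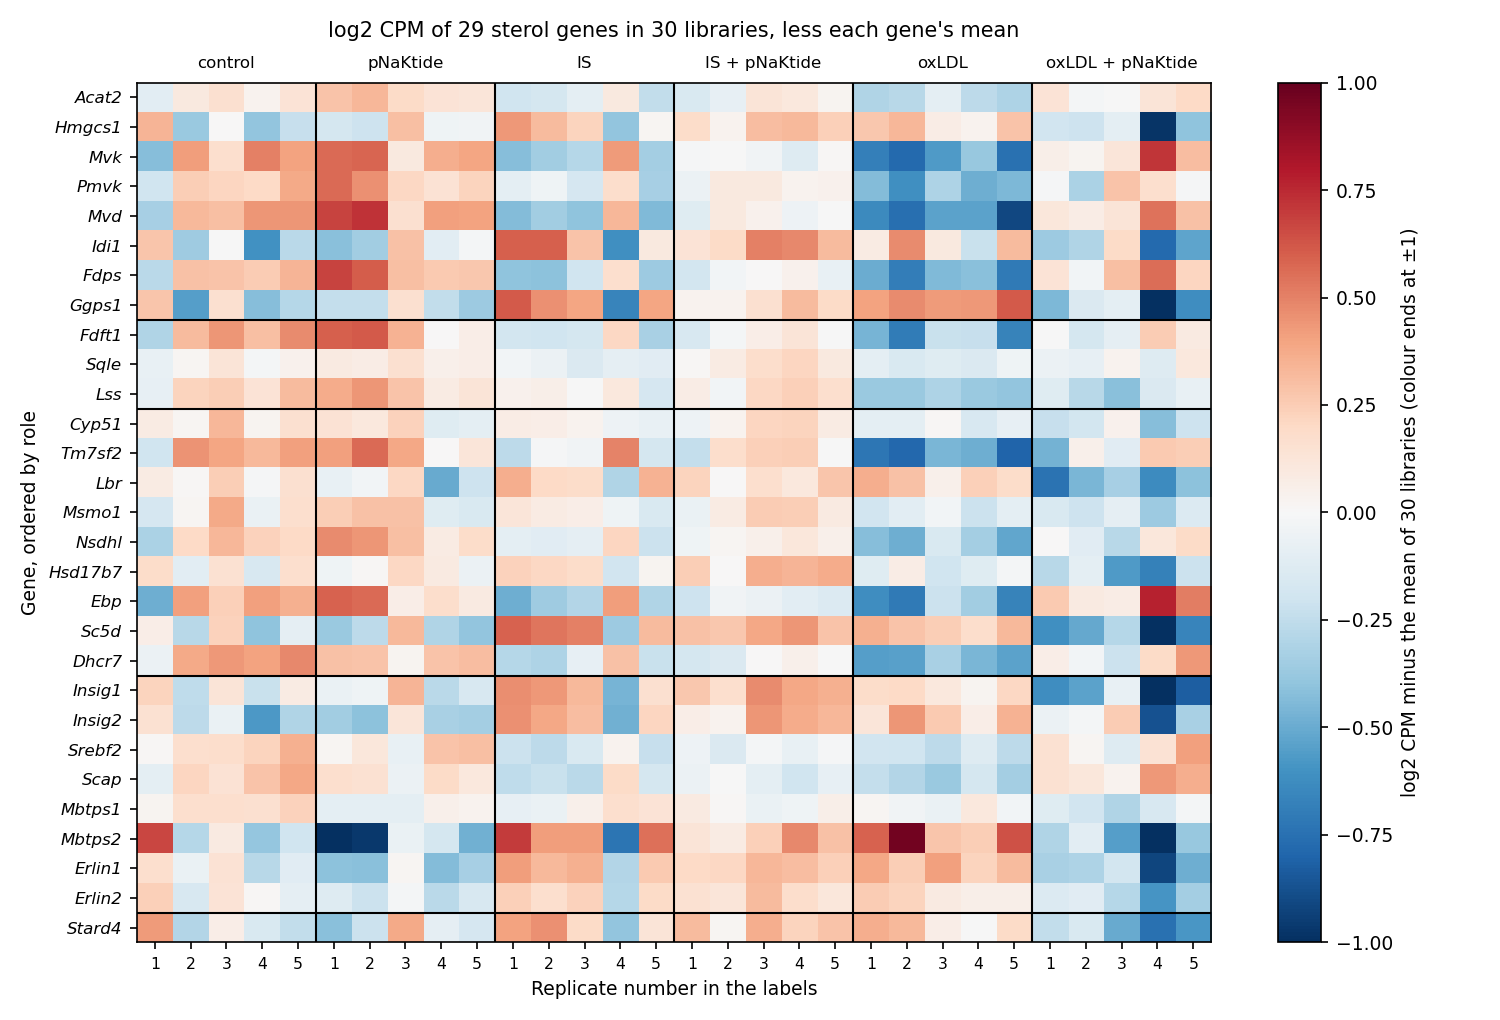
Each column is a library and each row a member, ordered by role, with colour giving log2 CPM less the gene's mean over the 30 libraries. The oxLDL columns are blue for Mvd, Fdps and Dhcr7 and red for Ggps1 and Mbtps2, and control library 1 and IS library 4 look unlike the rest of their groups.

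The first question was what oxLDL, a source of cholesterol and oxidant stress, did to the pathway. With oxLDL, 14 of 29 members fell and 5 rose. Most enzymes between mevalonate and farnesyl diphosphate, squalene synthase, and the last reductase, Dhcr7, were lower, as were Srebf2 and Scap, whereas Insig2, Ggps1, Sc5d, Mbtps2 and Erlin1 were higher. Fold changes and adjusted p-values here and below are from edgeR's quasi-likelihood test on TMM-normalized counts with Benjamini-Hochberg adjustment over all 20139 genes, two-sided, with a threshold of 0.1. In the same comparison, 18% of all genes tested were lower and 18.1% higher. When only the 11567 genes with more than 14 counts in every library were tested, 21 members were called, beside 58% of those genes, in either direction. The median log2 fold change of the members was -0.21, beside 0.04 over all genes tested. For 11 of 29 members every oxLDL library lay on one side of every control library, where 8.35% of all genes did so. With the trend of each library over GC and exon length removed, 18 members fell, beside 11.4% of all genes, and none rose, so none of the 5 rises was called there. In either direction that fit called 19.9% of all genes. Calls were kept by 14 of the 19 with each library left out in turn, and Cyp51, Sc5d, Insig2, Mbtps2 and Erlin1 lost theirs in at least 1 such fit. Without control 1 and IS 4, 17 members fell, beside 22.5% of all genes, and 8 rose, beside 25.1%. The 6 added calls were Hmgcs1, given below, Idi1 (0.47, adjusted p = 0.0254), Stard4 (0.35, adjusted p = 0.0242), Msmo1 (-0.26, adjusted p = 0.0303), Mbtps1 (-0.18, adjusted p = 0.0388) and Sqle (-0.15, adjusted p = 0.0644).

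The second question was what pNaKtide did in cells that also had oxLDL. Against oxLDL alone, 12 members rose and 13 fell, beside 22.1% of all genes higher and 26.1% lower. Mvd, Mvk, Fdps, Dhcr7, Srebf2 and Scap were among those that rose, and Hmgcs1, Idi1, Ggps1, Sc5d, Lbr, Insig1 and Stard4 among those that fell. This comparison shares the oxLDL libraries with the first, so the values of both are given side by side below and no overlap between them is drawn. Sqle, Lss, Cyp51 and Msmo1 were not called. With the GC and length trend removed, 16 members were higher, beside 18.9% of all genes, and 5 lower, beside 18%. The 5 were Lbr, Sc5d, Insig1, Erlin1 and Ggps1. The other falls lost their calls (Hmgcs1, Idi1, Insig2, Stard4, Mbtps1, Mbtps2 and Erlin2) or turned to a called rise (Hsd17b7), and Sqle, Lss, Cyp51 and Msmo1 were called higher (0.26, 0.43, 0.17 and 0.37, adjusted p = 0.00103, 0.00762, 0.0726 and 0.0117). The median log2 fold change was -0.06 for the members and -0.09 for all genes, and for 18 of 29 members the groups did not overlap, where 28.4% of all genes did so. Leaving out each library in turn kept the call of 21 of the 25.

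**Figure D2:**
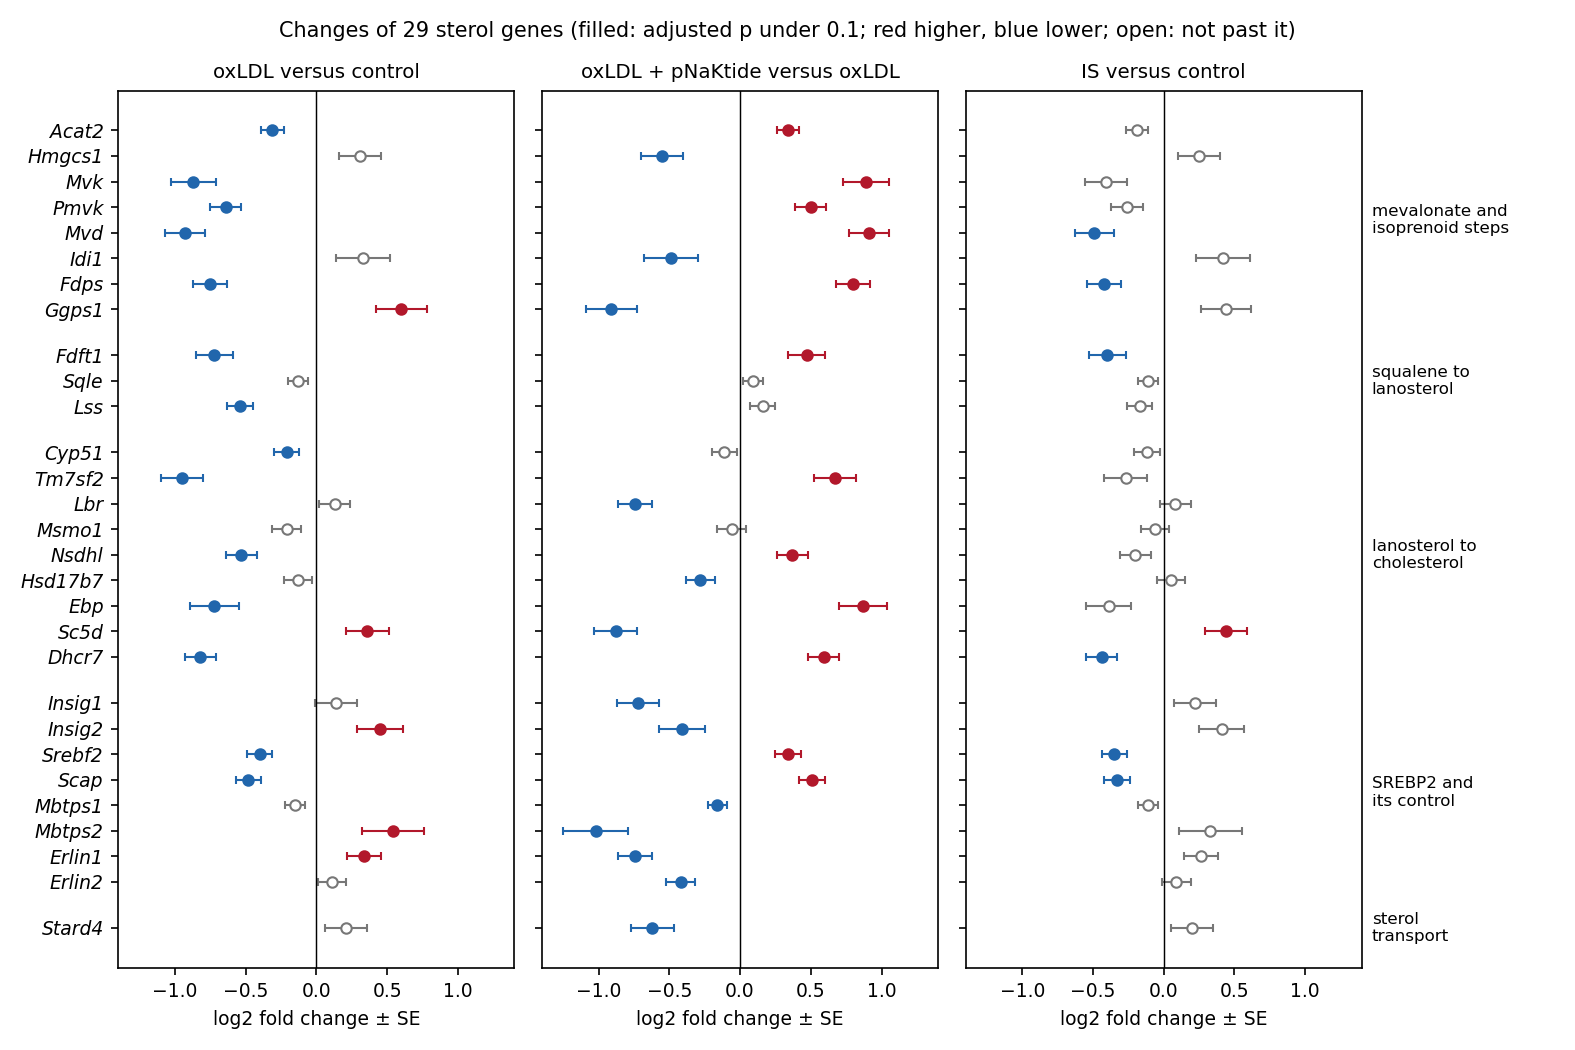
Points are log2 fold changes of the 29 members with their standard errors in 3 comparisons, ordered by role; filled points passed an adjusted p of 0.1. Mvd lies at -0.93 with oxLDL and at 0.91 when pNaKtide was added to oxLDL, Mbtps2 at 0.54 and -1.02, and few points are filled for IS.

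Of the 8 genes of the mevalonate and isoprenoid steps, 5 fell and 1 rose with oxLDL, with a median log2 fold change of -0.48, and with pNaKtide added 5 rose and 3 fell, with a median of 0.42. Mvd (GRCm38 chromosome 8, 122433601 to 122443422), the decarboxylase that makes isopentenyl diphosphate, had 66.7, 105, 104, 114 and 114 CPM in the control libraries, 53.9, 49.7, 57.9, 57.9 and 44.6 CPM with oxLDL, and 90.9, 88.6, 91.9, 123 and 103 CPM with oxLDL + pNaKtide. Every oxLDL library lay below every control and every oxLDL + pNaKtide library. With oxLDL Mvd fell by 0.93 in log2 units (SE 0.14, adjusted p = 0.00089) and was 0.91 higher with pNaKtide added (SE 0.14, adjusted p = 2.14e-05). These changes shrank to -0.59 and 0.47 with the GC and length trend removed (adjusted p = 1.45e-05 and 1.43e-05). Mvk, the kinase of mevalonate, had 42.8, 76.9, 64.8, 81.6 and 76.3 CPM in control, 35.8, 33.5, 38.9, 44.3 and 34.3 CPM with oxLDL, and 60.1, 58.7, 62.6, 94.7 and 71.4 CPM with oxLDL + pNaKtide. Its oxLDL libraries overlapped the control group only through control library 1. The changes of Mvk were -0.87 (SE 0.16, adjusted p = 0.0046) and 0.89 (SE 0.16, adjusted p = 6.16e-05). Pmvk, which adds the next phosphate, moved the same ways, by -0.64 and 0.50 (adjusted p = 0.00222 and 0.000496). Once the GC and length trend was removed, the second change of Pmvk was 0.09 (adjusted p = 0.482). Acat2, which joins acetyl-CoA units at the start of the pathway, went from 402 ± 28.3 to 323 ± 20.4 CPM (SD, n = 5) with oxLDL and stood at 408 ± 27.4 CPM with pNaKtide added. Reads of Acat2 may be shared with its close paralog Acat3, so its values are uncertain.

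Fdps, farnesyl diphosphate synthase, stood at the branch point where the sterol and the isoprenoid paths divide. It had 66.6, 98.7, 98.2, 96.2 and 102 CPM in control and 57, 49.8, 59.2, 60.2 and 49.3 CPM with oxLDL, and 88.7, 78.9, 99.1, 119 and 93.4 CPM with oxLDL + pNaKtide. No oxLDL library reached the other groups. Fdps fell by 0.75 in log2 units (SE 0.12, adjusted p = 0.00159) and was 0.80 higher with pNaKtide added (SE 0.12, adjusted p = 1.9e-05), the smallest adjusted p among the members of that comparison. Ggps1, which extends farnesyl to geranylgeranyl diphosphate for the lipid modification of proteins, had 21.3, 11.9, 19.7, 13.1 and 14.4 CPM in control, 23.3, 24.4, 23.7, 23.8 and 26.9 CPM with oxLDL, and 12.9, 15.9, 16.4, 7.45 and 11.4 CPM with oxLDL + pNaKtide. All oxLDL libraries lay above both other groups, with changes of 0.60 (SE 0.18, adjusted p = 0.0162) and -0.91 (SE 0.18, adjusted p = 0.000244). When the GC and length trend was removed, the rise lost its call (0.10, adjusted p = 0.506) and the fall shrank to -0.23 (adjusted p = 0.0574). The gene lies across Arid4b on the other strand, and the strand setting of the counting is not given in the sources used here.

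Hmgcs1, the synthase of hydroxymethylglutaryl-CoA whose start region holds the SREBP element printed above, did not fall with its neighbours. It had 254, 155, 201, 152 and 171 CPM in control, 243, 252, 211, 206 and 245 CPM with oxLDL, and 176, 174, 188, 102 and 152 CPM with oxLDL + pNaKtide. All 5 oxLDL libraries lay above the control mean, but control library 1 lay above them all, and the change of 0.31 did not pass (SE 0.15, adjusted p = 0.117). Without control 1 and IS 4 it passed at 0.45 (SE 0.13, adjusted p = 0.00444). Against oxLDL alone, Hmgcs1 fell by 0.55 with pNaKtide added (SE 0.15, adjusted p = 0.0035), with no overlap. Neither change of Hmgcs1 was called with the GC and length trend removed (-0.03 and -0.07, adjusted p = 0.862 and 0.534). Idi1, the isomerase of isopentenyl diphosphate, had 58.5, 37.6, 47.9, 31.7 and 39.8 CPM in control, 51, 66.9, 51.6, 41.3 and 60.1 CPM with oxLDL, and 37.3, 39, 55, 28 and 33.3 CPM with oxLDL + pNaKtide. Its groups overlapped in both comparisons, at 0.33 with oxLDL (SE 0.19, adjusted p = 0.203) and -0.49 with pNaKtide added (SE 0.19, adjusted p = 0.0429), the latter 0.04 with the trend removed (adjusted p = 0.828).

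From squalene to lanosterol, 2 of 3 genes fell with oxLDL, and 1 rose with pNaKtide added. Fdft1, squalene synthase, had 120, 184, 201, 182 and 205 CPM in control, 107, 90.9, 126, 126 and 92.8 CPM with oxLDL, and 147, 130, 139, 176 and 157 CPM with oxLDL + pNaKtide. It fell by 0.72 (SE 0.13, adjusted p = 0.00528), with overlap only through control library 1, and was 0.47 higher with pNaKtide added (SE 0.13, adjusted p = 0.0056). Fdft1 lies across Ctsb on the other strand, which held 217620 counts, so its counts could hold reads of that gene. Sqle, squalene epoxidase, had 186, 198, 215, 194 and 202 CPM in control, 184, 176, 181, 178 and 191 CPM with oxLDL, and 188, 186, 201, 179 and 211 CPM with oxLDL + pNaKtide. Its changes of -0.13 (SE 0.07, adjusted p = 0.14) and 0.09 (SE 0.07, adjusted p = 0.309) did not pass. Both passed with DESeq2 (-0.14 and 0.12, adjusted p = 0.0134 and 0.0262) and with the GC and length trend removed (-0.20 and 0.26, adjusted p = 0.031 and 0.00103).

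Lss, lanosterol synthase, had 169, 209, 213, 197 and 223 CPM in control, 138, 139, 144, 138 and 136 CPM with oxLDL, and 165, 148, 134, 162 and 170 CPM with oxLDL + pNaKtide. No oxLDL library reached the control group, whereas the oxLDL + pNaKtide group overlapped both others. Lss fell by 0.54 with oxLDL (SE 0.09, adjusted p = 0.00123), was 0.16 higher with pNaKtide added (SE 0.09, adjusted p = 0.134), and was lower with both agents than in control (-0.38, SE 0.09, adjusted p = 0.013). The last 2 values depended on the method. After removal of the GC and length trend, Lss was called higher with pNaKtide added (0.43, adjusted p = 0.00762) and was not called against control (-0.25, adjusted p = 0.255), and DESeq2 also called the rise (adjusted p = 0.0513).

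Of the 9 genes from lanosterol to cholesterol, 5 fell and 1 rose with oxLDL, and 4 rose and 3 fell with pNaKtide added. Dhcr7 (GRCm38 chromosome 7, 143823145 to 143848410), the reductase of the last step of one branch, had 196, 266, 276, 270 and 286 CPM in control, 140, 140, 164, 149 and 141 CPM with oxLDL, and 215, 201, 176, 233 and 277 CPM with oxLDL + pNaKtide. The oxLDL libraries lay below all libraries of the other groups. Dhcr7 fell by 0.82 (SE 0.11, adjusted p = 0.000601), the smallest adjusted p of the members in this comparison, and was 0.59 higher with pNaKtide added (SE 0.11, adjusted p = 0.00016). Tm7sf2, a sterol reductase, had 16.4, 25.8, 24.8, 23.6 and 25.1 CPM in control, 11.4, 10.9, 13.7, 13.4 and 10.7 CPM with oxLDL, and 13.6, 19.5, 17.4, 22.7 and 22.5 CPM with oxLDL + pNaKtide. It fell by 0.95 (SE 0.15, adjusted p = 0.00123) without overlap and was 0.67 higher with pNaKtide added (SE 0.15, adjusted p = 0.000751), where the groups overlapped. Lbr, the nuclear envelope protein that carries the same reductase activity, did not follow it. Lbr had 20.2, 19.2, 22.6, 18.9 and 21.4 CPM in control, 24.6, 23.3, 19.8, 22.5 and 21.7 CPM with oxLDL, and 11.4, 13.8, 15.1, 12.3 and 14.3 CPM with oxLDL + pNaKtide. Its change of 0.13 with oxLDL did not pass (adjusted p = 0.415), and it fell by 0.74 with pNaKtide added (SE 0.12, adjusted p = 2.97e-05), below every library of both other groups. The fall shrank to -0.33 with the GC and length trend removed (adjusted p = 0.00857).

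Cyp51, the demethylase of lanosterol, had 583, 559, 694, 561 and 616 CPM in control, 514, 516, 555, 492 and 520 CPM with oxLDL, and 469, 484, 569, 411 and 477 CPM with oxLDL + pNaKtide. It fell by 0.21 with oxLDL (SE 0.09, adjusted p = 0.0723), with a narrow gap between the groups, and its -0.11 with pNaKtide added did not pass (adjusted p = 0.36). The gene overlaps Akap9 on the other strand. Msmo1, the methylsterol oxidase, had 213, 242, 311, 227 and 268 CPM in control, 209, 222, 234, 205 and 223 CPM with oxLDL, and 215, 206, 224, 186 and 217 CPM with oxLDL + pNaKtide, with overlapping groups and changes of -0.21 and -0.06 that did not pass (adjusted p = 0.123 and 0.68). Nsdhl, the dehydrogenase that follows it, fell by 0.53 and was 0.37 higher with pNaKtide added (adjusted p = 0.00693 and 0.00571). Ebp, the sterol isomerase, fell by 0.72 and was 0.87 higher (adjusted p = 0.00783 and 0.000153), with 53.5 ± 8.27 CPM with oxLDL against 88.3 ± 19.8 CPM in control and 97.7 ± 20.9 CPM with both agents (SD, n = 5). Hsd17b7, the ketoreductase, was not called with oxLDL (-0.13, adjusted p = 0.379) and fell by 0.28 with pNaKtide added (adjusted p = 0.0336). Hsd17b7 was called the other way in the second with the GC and length trend removed, at 0.18 (adjusted p = 0.0907), and was called lower with oxLDL (-0.44, adjusted p = 0.00285).

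Sc5d, the desaturase that acts just before Dhcr7 in that branch, had 35.8, 28.2, 40.2, 25.7 and 32.1 CPM in control, 43.8, 41.7, 40.5, 38.6 and 42.7 CPM with oxLDL, and 22.2, 23.8, 28, 16.1 and 21.5 CPM with oxLDL + pNaKtide. It rose by 0.36 with oxLDL (SE 0.15, adjusted p = 0.069), with overlap through control library 3, and fell by 0.88 with pNaKtide added (SE 0.15, adjusted p = 4.87e-05), with none. The rise was called in 4 of 10 fits with a library left out, and with the GC and length trend removed it was -0.01 (adjusted p = 0.975), while the fall shrank to -0.37 (adjusted p = 0.000689).

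Among the 8 genes of SREBP2 and its control, oxLDL lowered Srebf2 and Scap and raised Insig2, Mbtps2 and Erlin1, and with pNaKtide added Srebf2 and Scap rose and the other 6 fell. With the GC and length trend removed, the calls of Srebf2 (-0.20 and 0.16) and Scap (-0.27 and 0.31) held in both comparisons, at smaller changes than those given below. Those of Insig1 and Erlin1 held in the second, and the other calls were lost. Srebf2 (GRCm38 chromosome 15, 82147181 to 82205379), which encodes SREBP2, had 158, 175, 176, 182 and 200 CPM in control, 137, 136, 130, 143 and 131 CPM with oxLDL, and 173, 159, 143, 173 and 208 CPM with oxLDL + pNaKtide. Its oxLDL libraries lay below all others, with the highest oxLDL and the lowest oxLDL + pNaKtide library close together. Srebf2 fell by 0.40 (SE 0.09, adjusted p = 0.00783) and was 0.34 higher with pNaKtide added (SE 0.09, adjusted p = 0.00258). Scap, the escort that senses sterol, had 78.2, 97.2, 92.2, 102 and 109 CPM in control, 70.9, 68, 64.5, 74.1 and 65.8 CPM with oxLDL, and 92.7, 90.5, 85.6, 113 and 108 CPM with oxLDL + pNaKtide. Again no oxLDL library reached the others, with changes of -0.48 (SE 0.09, adjusted p = 0.00573) and 0.51 (SE 0.09, adjusted p = 9.41e-05).

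Insig1, an anchor that holds Scap and is itself a classical SREBP target, had 305, 219, 286, 223 and 276 CPM in control, 296, 299, 281, 265 and 301 CPM with oxLDL, and 170, 180, 248, 130 and 147 CPM with oxLDL + pNaKtide. The oxLDL libraries lay within the control range, and the change of 0.14 did not pass (SE 0.15, adjusted p = 0.512). With pNaKtide added Insig1 fell by 0.72 (SE 0.15, adjusted p = 0.000294), with no overlap. Insig2, the second anchor, had 44.7, 33.5, 38.3, 26.9 and 32.6 CPM in control, 43.7, 54.7, 48.3, 42.1 and 51.3 CPM with oxLDL, and 38.7, 39.6, 47.9, 21.9 and 32 CPM with oxLDL + pNaKtide. It rose by 0.45 with oxLDL (SE 0.16, adjusted p = 0.0399) and fell by 0.41 with pNaKtide added (SE 0.16, adjusted p = 0.0447), with overlap in both, and neither was called with the trend removed (0.28 and -0.16, adjusted p = 0.116 and 0.341). Mbtps2, the membrane protease that makes the last cut of SREBP2, was the member with the lowest level, at 13.0 ± 4.34 CPM in control, 18.9 ± 4.00 CPM with oxLDL and 9.26 ± 2.25 CPM with oxLDL + pNaKtide (SD, n = 5). It rose by 0.54 (SE 0.22, adjusted p = 0.0619) and fell by 1.02 (SE 0.23, adjusted p = 0.000638), and with the GC and length trend removed neither call held (-0.04 and -0.21, adjusted p = 0.863 and 0.166). Mbtps1, the protease that makes the first cut, changed by -0.15 with oxLDL (adjusted p = 0.114) and fell by 0.16 with pNaKtide added (adjusted p = 0.0765), a call made in 4 of 10 fits with a library left out and absent with the trend removed (0.01, adjusted p = 0.915).

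Erlin1, a cholesterol-binding protein of the endoplasmic reticulum that restrains SREBP activation, had 48.6, 41.3, 47.9, 35.7 and 39.9 CPM in control, 56.5, 51.5, 57.7, 50.6 and 53.8 CPM with oxLDL, and 34.5, 34.9, 38, 22.8 and 30.7 CPM with oxLDL + pNaKtide. The oxLDL group overlapped neither of the others, with a rise of 0.34 (SE 0.12, adjusted p = 0.033) and a fall of -0.74 (SE 0.12, adjusted p = 3.33e-05). Without the GC and length trend, the rise lost its call (0.15, adjusted p = 0.187) and the fall held (-0.43, adjusted p = 5.73e-05). Its partner Erlin2 was not called with oxLDL (0.11, adjusted p = 0.438) and fell by 0.42 with pNaKtide added (adjusted p = 0.000846), a call lost with the trend removed (-0.09, adjusted p = 0.298). Stard4, the carrier that moves cholesterol between membranes, had 42, 25.4, 32.7, 28 and 26.3 CPM in control, 40, 38.9, 32.6, 31 and 35.5 CPM with oxLDL, and 26.3, 28, 21.9, 18.5 and 20.7 CPM with oxLDL + pNaKtide. Its 0.21 with oxLDL did not pass (SE 0.15, adjusted p = 0.312), and it fell by 0.62 with pNaKtide added (SE 0.15, adjusted p = 0.00136), with no overlap. This call too was lost with the trend removed (-0.17, adjusted p = 0.176).

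**Figure D3:**
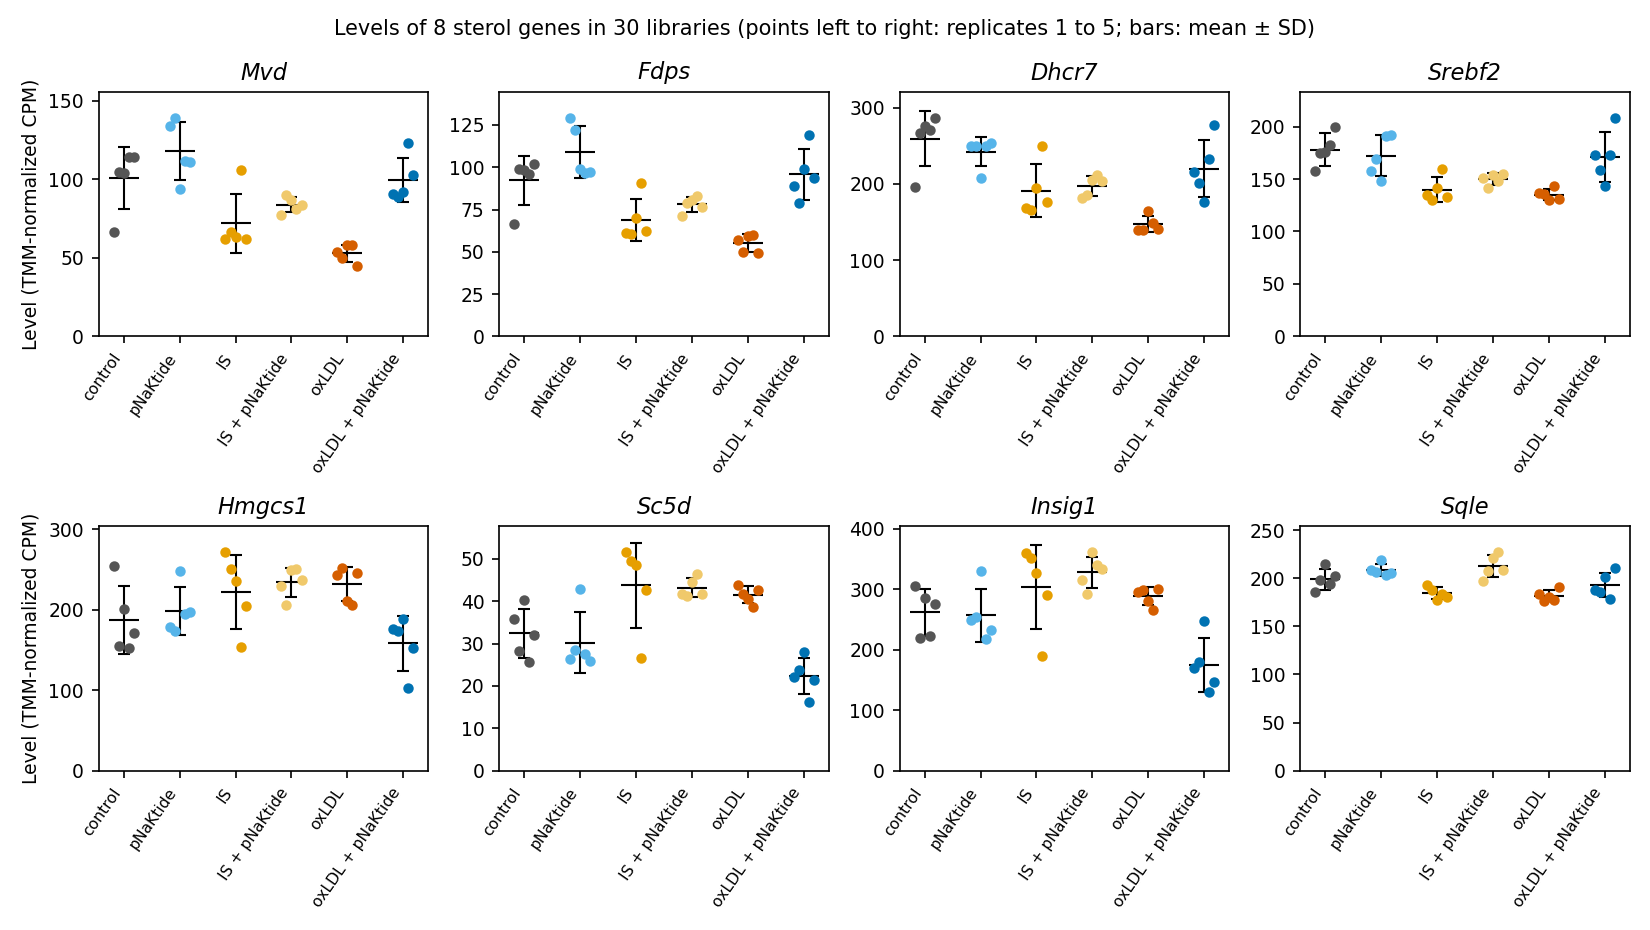
Each panel gives TMM-normalized CPM of a member in the 30 libraries, with points for libraries and bars for the mean ± SD of 5. Mvd, Fdps, Dhcr7 and Srebf2 are lowest with oxLDL, Hmgcs1, Sc5d and Insig1 are lowest with oxLDL + pNaKtide, and Sqle moves little.

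Set against control, cells given oxLDL + pNaKtide had 9 members lower and none higher, beside 3.16% of all genes lower, with a median log2 fold change of -0.25 for the members and -0.03 for all genes. The 9 were Lbr (-0.61, SE 0.12, adjusted p = 0.00545), Lss, given above, Mbtps1 (-0.31, SE 0.07, adjusted p = 0.0155), Insig1 (-0.58, SE 0.15, adjusted p = 0.0277), and Hsd17b7, Cyp51, Sc5d, Erlin1 and Erlin2 (from -0.53 to -0.32). For the other 20 no call was made, and a call that is missing does not show that a level was that of control. Without oxLDL + pNaKtide library 4, the shallowest, 3 members were called, all lower, beside 1.38% of all genes called lower, without control library 3 they were 5, all lower, beside 1.86% called lower, and none was called when only the groups compared entered the fit. Scaled by total counts alone, 15 were called lower and none higher, beside 7.88% of all genes called lower. With the GC and length trend removed, 9 members were again called, all lower. Lss and Mbtps1 (-0.19, adjusted p = 0.124) lost their calls, and Pmvk (-0.24, adjusted p = 0.0816) and Stard4 (-0.26, adjusted p = 0.0849) were added.

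Whether pNaKtide acted otherwise with oxLDL than without was tested as the difference of the pNaKtide changes, and 15 members passed. The change was more upward with oxLDL for Mvk, Mvd, Fdps, Tm7sf2, Ebp, Dhcr7, Srebf2 and Scap (8 members, beside 12.8% of all genes), and more downward for Hmgcs1, Ggps1, Lbr, Sc5d, Insig1, Erlin1 and Stard4 (7 members, beside 11.8%). The smallest adjusted p was that of Scap, whose pNaKtide change was 0.59 higher with oxLDL than without (SE 0.13, adjusted p = 0.0188). Dhcr7 differed by 0.68 (SE 0.16, adjusted p = 0.0204), Sc5d by -0.79 (SE 0.21, adjusted p = 0.0257) and Ggps1 by -0.87 (SE 0.26, adjusted p = 0.033). The median was 0.02 for the members and -0.05 for all genes. Without control 1 and IS 4, 24 members passed, beside 40% of all genes. With the GC and length trend removed, 8 of the 15 passed, and Ggps1 (-0.27, adjusted p = 0.203), Hmgcs1, Lbr, Stard4, Erlin1, Mvd and Srebf2 did not.

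IS, used to mimic the uremic state, called fewer members. With IS 6 fell, beside 3.49% of all genes, and 1 rose, beside 4.45%. These were Mvd (-0.49, SE 0.14, adjusted p = 0.0694), Dhcr7 (-0.44, SE 0.11, adjusted p = 0.0554), Fdps (-0.42, SE 0.12, adjusted p = 0.0686), Fdft1 (-0.40), Srebf2 (-0.35, SE 0.09, adjusted p = 0.0538) and Scap (-0.33, SE 0.09, adjusted p = 0.0662), with Sc5d higher (0.44, SE 0.15, adjusted p = 0.0907). The median was -0.11 for the members and 0.03 for all genes. When only genes with more than 14 counts in every library were tested, 10 members were called, beside 21% of those genes, in either direction. No member had groups free of overlap, where 1.81% of all genes did. Mvd had 62.3, 66.2, 63.6, 106 and 62 CPM with IS, Dhcr7 168, 165, 194, 250 and 176 CPM, and Srebf2 135, 130, 141, 160 and 133 CPM. IS library 4 was the highest of its group in all 3, within the range of the control values given above, and control library 1 was the lowest of the controls.

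The count for IS rested on these libraries. Without control 1 and IS 4, 14 members fell, beside 21.6% of all genes, and 10 rose, beside 23.8%, and the 7 called with all libraries were among them. Mvd then changed by -0.78, Mvk by -0.73, Ebp by -0.72, Hmgcs1 by 0.50, Idi1 by 0.70 and Insig2 by 0.64. Leaving out control 1 alone or IS 4 alone called 21 members, beside 33.2% and 34.5% of all genes. Leaving out control library 3 called 1, beside 1.51%, and leaving out any other library of the 10 called 0. The choice of these libraries rested on the data, so the larger counts are no independent support. Among members always described, Hmgcs1 (0.25), Idi1 (0.42), Sqle (-0.11), Cyp51 (-0.12), Msmo1 (-0.06), Insig1 (0.22), Insig2 (0.41) and Stard4 (0.20) did not pass with all libraries.

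Without oxLDL or IS, pNaKtide changed no member past the threshold in edgeR's test, beside 0.00497% of all genes, and 3 members had an unadjusted p under 0.05, beside 6.12% of all genes, all of them lower (Mbtps1 by -0.19, Erlin1 by -0.28 and Mbtps2 by -0.52). DESeq2 also called none. In the pNaKtide libraries Mvd had 134, 139, 93.9, 112 and 111 CPM and Dhcr7 250, 250, 208, 249 and 253 CPM, both overlapping the controls. Added to IS, pNaKtide called no member, beside 0% of all genes. Only Sqle, at 197, 208, 221, 227 and 209 CPM against 193, 188, 177, 184 and 181 CPM with IS, had an unadjusted p under 0.05 (0.00429), beside 2.8% of all genes, and groups that did not overlap, beside 0.834%, and DESeq2 called 1 member, beside 0.0695% of all genes. The difference of the pNaKtide changes with IS and without was called for no member, beside 0% of all genes, with DESeq2 also calling none. IS + pNaKtide against control called none, beside 0.358%, with 10 members at an unadjusted p under 0.05, beside 20%, and 6 called by DESeq2, beside 7.38%. Without control 1 and IS 4 it called 23, beside 32.4%. IS against oxLDL called none, beside 0.0149%. There 9 members had an unadjusted p under 0.05, beside 5.2%, all higher with IS than with oxLDL, among them Tm7sf2 at 0.68 (adjusted p = 0.233) and Lss at 0.37 (adjusted p = 0.278), and DESeq2 called 2, beside 0.204%.

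The direction of the changes went with the base composition of the genes. The 14 members that fell with oxLDL had a median GC content of 51.4% over their longest transcript (range 45.8 to 59.1), and the 5 that rose had 42.9% (range 40 to 46). Over all genes called, the medians were 54.3% and 43.3%. With the trend of each library over GC and exon length removed, Dhcr7 stood at -0.71 with oxLDL, Mvd at -0.59, Fdps at -0.70 and Srebf2 at -0.20, all called lower, and Msmo1 (-0.50, adjusted p = 0.0118) and Mbtps1 (-0.21, adjusted p = 0.0599) joined Sqle and Hsd17b7 as added calls. With pNaKtide added, Insig1 kept most of its fall (-0.63, adjusted p = 0.000728). The 8 differences between the pNaKtide changes that passed with the trend removed were 6 upward, beside 7.12% of all genes, and 2 downward, beside 4.42%. With IS 5 members then fell, beside 2.14%, and none rose, where 4.06% of all genes were called in either direction. Fdft1 (-0.33, adjusted p = 0.142), Scap (-0.19, adjusted p = 0.137) and Sc5d (0.16, adjusted p = 0.269) lost their IS calls, and Cyp51 was added (-0.24, adjusted p = 0.0686). Why counts moved with GC content was not tested.

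**Figure D4:**
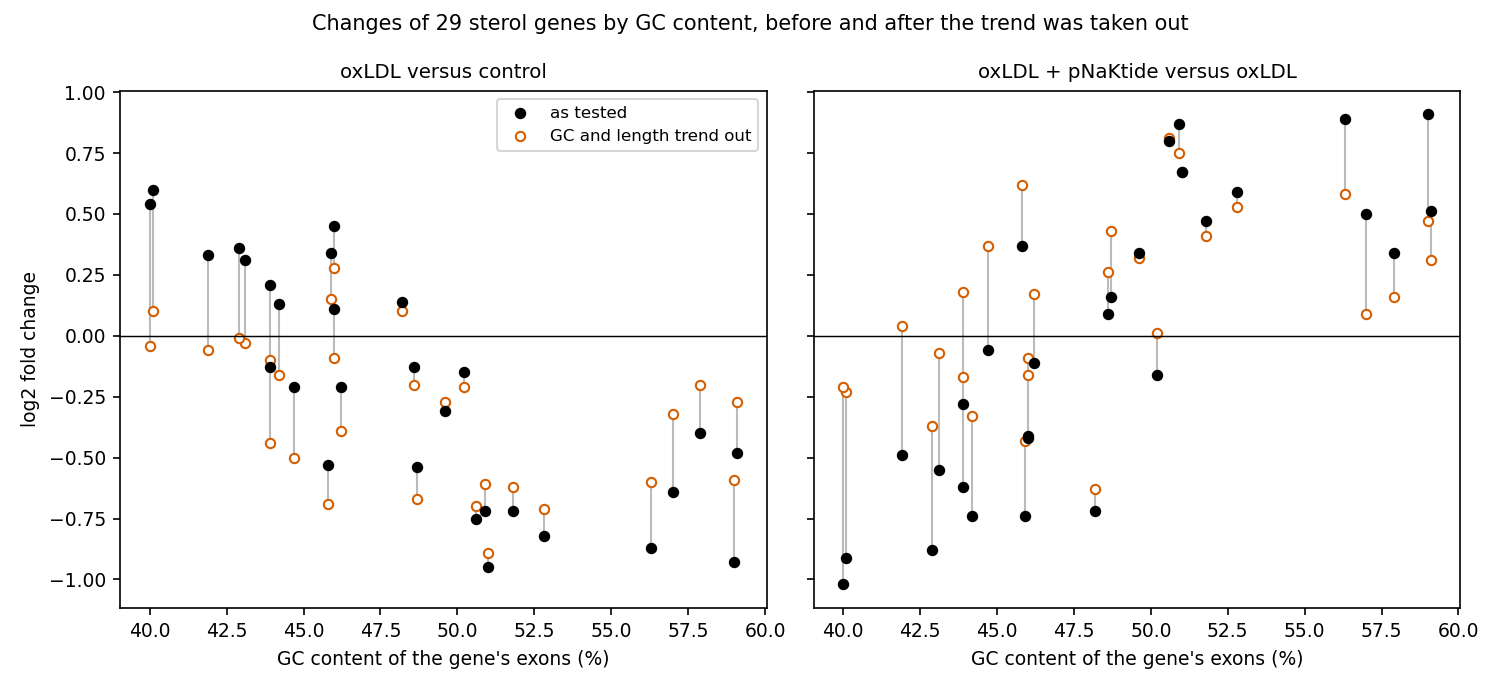
Log2 fold changes of the 29 members are drawn against the GC content of their longest transcript, which the axis labels as exons. Filled points are as tested, and open points have the trend of each library over GC and exon length removed. With oxLDL the members under 48% GC lie lower once the trend is out, and those above 55% lie nearer to 0.

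Scaling by total counts alone moved the median of all genes with oxLDL from 0.04 to 0.17 and called 6 members higher, beside 24.6% of all genes, and 13 lower, beside 11.3%. For pNaKtide added to oxLDL it moved the median from -0.09 to -0.30 and called 9 higher, beside 13.4%, and 15 lower, beside 38.1%. For IS it called 3 higher, beside 10.6%, and 5 lower, beside 2.07%.

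Genes of neighbouring pathways were taken from lists chosen with earlier results of these data known. In the list of SREBP1 and fatty acid synthesis, 7 of 12 genes fell with oxLDL and 1 rose, with a median of -0.35, and 6 rose and 2 fell with pNaKtide added, with a median of 0.19. Fads1, a fatty acid desaturase, fell by 0.60 and then rose by 0.53 (adjusted p = 0.00222 and 0.000139), and Elovl6, an elongase, moved by 0.66 and -0.77 (adjusted p = 0.0228 and 0.00448). In the list of enzymes that use isoprenoids, 4 of 11 rose and 4 fell with oxLDL, with a median of 0.04, and 4 rose and 3 fell with pNaKtide added, with a median of -0.04. Fntb, a subunit of farnesyltransferase, changed by -0.48 and 0.53, and Rabggtb, a subunit of the enzyme that attaches geranylgeranyl groups to Rab proteins, by 0.59 and -0.61. In the list of sterol efflux, esterification and lysosomal export, 2 of 9 rose and 4 fell with oxLDL, with a median of -0.19, and 4 rose and 3 fell with pNaKtide added, with a median of 0.21. Lpcat3, a phospholipid-remodelling target of the oxysterol receptors, changed by -0.52 and 0.73, and Mylip, an oxysterol-induced ubiquitin ligase, by 0.31 and -0.38. With IS these lists had 0 higher and 2 lower, 2 higher and 0 lower, and 1 higher and 2 lower. The shares of all genes called in each comparison are those given above.

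Levels can be compared between genes only per length, for which the deposited FPKM values served. In control cells Acat2 (156 ± 10.6 FPKM) and Cyp51 (135 ± 12.0 FPKM) stood above Nsdhl (84.3 ± 13.1 FPKM) and Insig1 (83.6 ± 12.2 FPKM), which did not differ beyond their spread (SD, n = 5). Mvd (53.6 ± 10.4 FPKM) and Dhcr7 (43.9 ± 6.01 FPKM) followed, and Hmgcs1 (40.2 ± 9.14 FPKM), Sqle (35.4 ± 1.79 FPKM), Srebf2 (24.5 ± 2.05 FPKM) and Fdps (21.7 ± 3.37 FPKM) lay in the middle of the order. Scap (12.7 ± 1.53 FPKM) and Insig2 (10.0 ± 1.91 FPKM) were lower, with Ggps1 (3.37 ± 0.872 FPKM) and Mbtps2 (1.27 ± 0.427 FPKM) last.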

How the data were processed

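RNA of 3T3-L1 cells was analysed in 30 libraries, 5 in each of 6 groups, with 6945498 to 15159877 counted reads per library. Paired-end reads had been trimmed (Trimmomatic 0.38) and aligned to GRCm38 (HISAT2 2.1.0) by the authors, who deposited raw counts per gene, neither normalized nor pooled over replicates. FPKM values, scaled to gene length and depth, were also deposited by the authors. No annotation release or strand setting is named in the sources used here. The authors' normalized counts were not used.

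The fit held 20139 genes with more than 14 counts over all libraries, TMM scaling and 6 groups, with edgeR 4.0.16 (robust quasi-likelihood) in R 4.3.3, BH adjustment over all genes and a limit of 0.1. For log2 CPM the prior count was 2. Alternatives were DESeq2 1.42.0, limma 3.58.1 on log2(FPKM + 1) where the mean FPKM reached 0.5, other scalings and count limits, a replicate block, the compared groups alone, each library left out, control 1 and IS 4 left out, and a GC and length trend per library (mgcv 1.9.3) taken out. Steps were tested on simulated data. The lowest chi-square per degree of freedom over 60 pairs of libraries in a group was 1.3, so no pair was a plain copy. That value cannot tell separate cultures from libraries of the same RNA. The members, lists, tests and alternatives were chosen with earlier results of these data known. Of the members, 11 are given throughout. In each comparison those past the limit are added, up to 4 per direction by adjusted p, the rest being given in counts or in short, with at most 2 genes from any other list. Gene positions and GC content, the latter of the longest transcript of each gene, are from GENCODE on GRCm38, and promoters from RefSeq (GRCm38.p6).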

Additional observations from a re-analysis of the deposited data

Results flagged for a closer look

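In 24 of the 174 sets of 5 CPM values (29 members in 6 groups), the highest or lowest library lay apart from the other 4 by more than Dixon's critical value of 0.71, where chance gives about 1 in 20 sets. IS library 4 gave 11 of these. It was highest of its group for Mvk (77.3 CPM), Mvd (106 CPM), Fdft1 (171 CPM), Tm7sf2 (26.7 CPM), Nsdhl (255 CPM), Ebp (101 CPM) and Scap (95.5 CPM), and lowest for Ggps1 (11.1 CPM), Mbtps2 (7.61 CPM), Erlin1 (35.3 CPM) and Erlin2 (36.1 CPM). Control library 1 gave 7, all as the lowest of its group: Mvd (66.7 CPM), Fdps (66.6 CPM), Fdft1 (120 CPM), Tm7sf2 (16.4 CPM), Nsdhl (177 CPM), Ebp (53.8 CPM) and Dhcr7 (196 CPM). pNaKtide library 3 gave 5, as the highest for Ggps1 (19.6 CPM), Sc5d (42.9 CPM), Insig2 (43.6 CPM) and Erlin1 (43.8 CPM) and the lowest for Dhcr7 (208 CPM). oxLDL library 3 was the highest for Acat2 (359 CPM). The cause was not tested.

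The change with pNaKtide differed between cells with and without oxLDL for 15 members by the interaction term in edgeR's quasi-likelihood test, 8 upward and 7 downward, beside 12.8% and 11.8% of all genes. With the GC and length trend out, Mvd, Srebf2, Hmgcs1, Ggps1, Lbr, Erlin1 and Stard4 no longer passed. On the log2 scale the difference was 0.73 for Mvk, 0.69 for Mvd, 0.56 for Fdps, 0.65 for Tm7sf2, 0.77 for Ebp, 0.68 for Dhcr7, 0.39 for Srebf2 and 0.59 for Scap. It was -0.63 for Hmgcs1, -0.87 for Ggps1, -0.54 for Lbr, -0.79 for Sc5d, -0.69 for Insig1, -0.45 for Erlin1 and -0.57 for Stard4.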

How the results depend on the processing

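Counts of members called are followed by the share of all genes called in the same setting, in either direction. For IS against control, 7 became 13 with DESeq2 (15.7%), 12 with a replicate block (17%), 0 with the compared groups alone (0%), 0 at an adjusted p of 0.05 (0.646%), 24 without control 1 and IS 4 (45.4%), and 22 without both and with the GC and length trend out (33.1%). For IS + pNaKtide against IS, 0 became 1 with DESeq2 (0.0695%) and 1 without both libraries and with the trend out (0.109%). For oxLDL + pNaKtide against control, 9 became 15 with library size only (9.77%), 0 with the compared groups alone (0.0546%), and 14 without both libraries and with the trend out (11.7%). For IS + pNaKtide against control, 0 became 6 with DESeq2 (7.38%), 1 with more than 14 counts in every library (2.7% of 11567 genes), 7 with a replicate block (6.64%), 7 with the compared groups alone (5.72%), 1 with the trend out (2.06%), 2 with the trend out and the replicate block (3.72%), 23 without control 1 and IS 4 (32.4%), and 16 without both and with the trend out (21.6%). For IS against oxLDL, 0 became 2 with DESeq2 (0.204%), 2 with library size only (0.0348%), 2 with more than 14 counts in every library (0.104%), and 1 with the trend out, alone (0.0993%), with the replicate block (0.134%) or without both libraries (0.124%). For the difference of the pNaKtide change with oxLDL and without, 15 became 8 with the trend out (11.5%), 8 with the trend out and the replicate block (14.1%), and 24 without both libraries (40%). Leaving out 1 library gave 15 to 25 of 19 for oxLDL against control, 0 to 21 of 7 for IS against control, 21 to 25 of 25 for oxLDL + pNaKtide against oxLDL, 3 to 10 of 9 for oxLDL + pNaKtide against control, 0 to 17 of 0 for IS + pNaKtide against control (17 without control 1), and 11 to 20 of 15 for that difference. No other count moved by over 1.5 times. The cause was not tested.

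Among members called with or without the alternative, signs turned with the trend out. For oxLDL against control these were Sc5d (-0.01, and -0.04 without both libraries), Mbtps2 (-0.04, also with the replicate block) and Lbr (-0.21 without both), and for IS against control Hsd17b7 (-0.22 without both). For oxLDL + pNaKtide against oxLDL they were Idi1 (0.04, 0.03 with the block), Cyp51 (0.17, 0.16 with the block), Msmo1 (0.37), Hsd17b7 (0.18) and Mbtps1 (0.01), and for the difference Cyp51 (0.23) and Msmo1 (0.36) without both. Members called neither way changed sign too, with the trend out (Hmgcs1 from 0.31 to -0.03 with oxLDL) and without it (Mvk from 0.02 to -0.11 for oxLDL + pNaKtide against control, without both libraries). Libraries with the same number did not deviate together throughout (correlations from -0.66 to 0.79, with 36 of 75 pairs over 0.1 and no group pair with all 5 over 0.1), so the numbers were not taken as pairs, although the libraries numbered 4 of control, IS, oxLDL and oxLDL + pNaKtide correlated at 0.58 to 0.79. Control 1 and IS 4 were named for leaving out after earlier results of these data were seen. Between 6945498 and 15159877 counts per library limit the precision of the lowest members, such as Mbtps2.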
